A study of Mus musculus with 2 samples.

Results

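The genes described here are 9 chemokines that intestinal epithelium can express, Ccl20, Ccl25, Ccl28, Ccl6, Ccl9, Cxcl1, Cxcl10, Cxcl16 and Cx3cl1, together with the cytokine Il18. They were chosen by name, with earlier results of these data known, and all 10 were found among the 19294 genes of the count table. Control and DSS-treated cultures of mouse intestinal organoids (mIOs) were compared by mRNA-seq, with 1 library each. The organoids grew from jejunal crypts of Lgr5-EGFP-IRES-creERT2 mice in Matrigel domes with EGF, Noggin and R-spondin, and both conditions carried this allele, which places EGFP and an inducible Cre at the Lgr5 locus. The control library came from untreated mIOs on Day 4, and the DSS library from mIOs exposed for 4 days to dextran sulfate sodium (DSS), a polysaccharide used to provoke epithelial injury and colitis in mice. The DSS concentration used for sequencing, the age of the mice, and whether the cultures came from separate mice are not given in the sources used here, so culture and condition cannot be told apart. Organoids of this kind are grown from epithelium alone, without the leukocytes that the chemokines act on in the gut.

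Chemokines are small secreted proteins that direct leukocytes along a concentration gradient through G protein-coupled receptors. The epithelium of the small intestine uses some of them without injury, to seat lymphocytes and plasma cells in the mucosa, and makes others when NF-κB or interferon signaling is switched on. IL-18 belongs to the interleukin 1 family, is stored in epithelial cells as an inactive precursor, and is released in its active form after cleavage by an inflammasome protease.

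Summed over genes, the control counts came to 65493032 and the DSS counts to 59746968. Levels are given as CPM, each gene's share of the library multiplied by a common constant, after scaling with the TMM factors of edgeR, and a difference is given as the log2 ratio of scaled counts, DSS over control, with its 95% Clopper-Pearson interval. With 1 library per condition there is no replicate check, no test between the conditions was made, and every interval covers counting error only. In bulk RNA, fewer cells of a type and less RNA per cell cannot be told apart. Counts of genes rest on the 17235 genes with 10 or more counts in the control library, the DSS library or both, and all 10 genes described here passed this minimum. The labels name the cell type as intestinal stem cells, but both libraries also held enterocyte genes, and counts of the stem cell marker Lgr5 were 18849 without DSS and 1048 with it.

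Of the 10 genes, 4 had a log2 ratio of 2 or more in favor of the DSS library, where 7.87% of all genes did, and these were Ccl6, Ccl20, Il18 and Cxcl16. A single gene, Ccl28, had a log2 ratio of -2 or less, a size reached by 6.54% of all genes. At the lower line of 1, Ccl9 and Cx3cl1 joined the higher genes, for 6 of 10 beside 19.3% of all genes. Cxcl10 joined Ccl28 at -1 or less, for 2 of 10 beside 20.2% of all genes. The counting interval lay wholly above 0 for 7 of the 10 genes and wholly below 0 for 2, while over all genes these shares were 38.7% and 42.7%. The median log2 ratio of the 10 genes was 1.48, and that of all genes was -0.06. Cxcl16 lay close to the line of 2, and scaled by total counts alone it was at 1.82, which left 3 genes past the line.

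**Figure D1:**
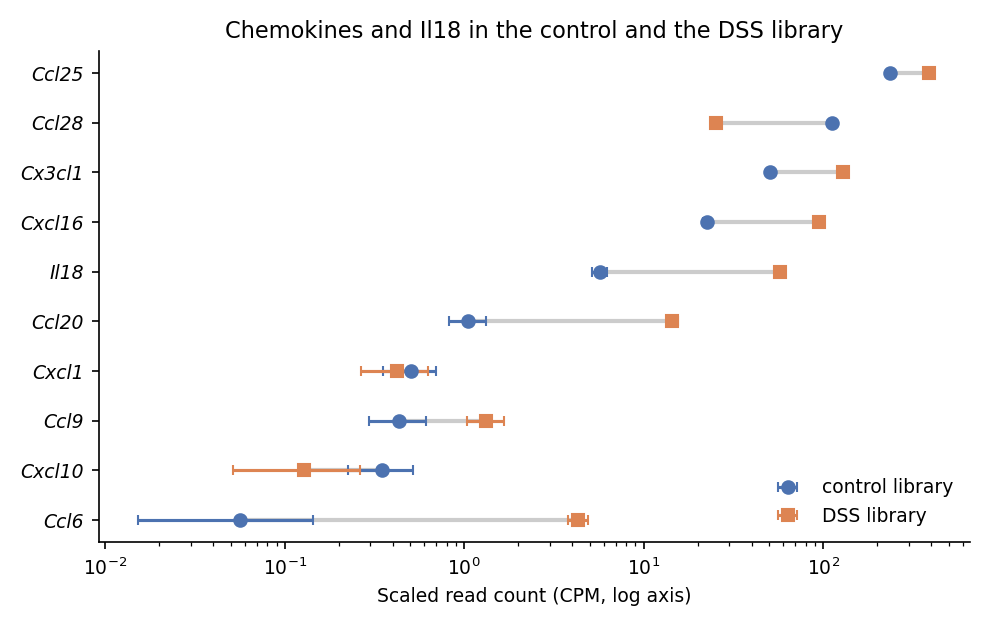
Scaled read count (CPM, log axis) of the 9 chemokines and Il18 in the control library (circles) and the DSS library (squares), ordered by the control level. Bars are exact 95% Poisson intervals for counting error, with 1 library per condition. Ccl6 and Ccl20 lay far to the right in the DSS library, and Ccl28 lay to the left. The bars of the 2 libraries overlapped for Cxcl1 and for Cxcl10. The interval of the log2 ratio still lay below 0 for Cxcl10 (-2.90 to -0.20).

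The widest gap belonged to Ccl6 (NCBI gene 20305), a CC chemokine that acts through the receptor CCR1. It had 4 counts in the control library and 235 in the DSS library, or 0.0559 CPM and 4.30 CPM. The log2 ratio was 6.27 (interval 4.89 to 8.15), and 13 of the 17235 genes had a higher ratio. Genes without a count in either one of the libraries are absent from the count table, and so from this and later rankings. On the linear scale this was 76.9-fold (interval 29.6 to 285), which is wide, with 4 control counts. Ccl6 thus went from a gene near the limit of detection to a low but clearly counted one.

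Its neighbor Ccl9 (NCBI gene 20308) is also a ligand of CCR1 and is known from the epithelium over lymphoid follicles. It had 31 counts in the control library and 72 in the DSS library, or 0.433 CPM and 1.32 CPM. With a log2 ratio of 1.60 and an interval from 0.98 to 2.26, Ccl9 was higher in the DSS library by less than Ccl6, and the intervals of the pair did not overlap. In the control library there were 0.129 counts of Ccl6 for each count of Ccl9, and in the DSS library there were 3.26, a comparison that no library scaling alters. The genes lie on chromosome 11 of GRCm38.p6 on the minus strand, Ccl6 from 83587886 to 83593087 and Ccl9 from 83572917 to 83578636, with 9250 bases between them. Each has 4 exons in its longest coding transcript, and Ccl6 overlaps E230016K23Rik on the other strand without shared exonic bases. No stretch of 50 bases in the longest Ccl6 transcript occurred unchanged in an annotated transcript of another gene. For Ccl9, 1.995% of such stretches did. Near matches, the opposite strand and the rest of the genome were not searched.

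Ccl20 (NCBI gene 20297) encodes the ligand of CCR6, which draws dendritic cells, B cells and Th17 cells to the epithelium. Its counts were 75 in the control library and 789 in the DSS library, or 1.05 CPM and 14.4 CPM. The log2 ratio was 3.78 (interval 3.44 to 4.15), which is 13.8-fold, and 244 genes had a higher ratio. This compact gene of 3 exons lies on chromosome 1 from 83116766 to 83119167, and no annotated gene overlaps it.

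Cxcl1 (NCBI gene 14825) and Cxcl10 (NCBI gene 15945) are the classical inducible chemokines of the group, the former drawing neutrophils through CXCR2 and the latter drawing T cells and NK cells through CXCR3. Cxcl1 had 36 counts in the control library and 23 in the DSS library, or 0.503 CPM and 0.421 CPM. Its log2 ratio was -0.26 (interval -1.08 to 0.54), so a difference of Cxcl1 was not detectable at this depth. Cxcl10 had 25 counts in the control library and 7 in the DSS library, or 0.349 CPM and 0.128 CPM. At -1.45 (interval -2.90 to -0.20), its log2 ratio was on the opposite side of 0 from that of Ccl20. Both genes were thus barely counted in either library, and neither had an interval wholly above 0.

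Cxcl1 and Cxcl10 lie on chromosome 5, Cxcl1 from 90891245 to 90893121 on the plus strand and Cxcl10 from 92346638 to 92348889 on the minus strand. Part of Cxcl10 overlaps Art3 on the other strand, with 133 exonic bases in common. Cxcl11, another CXCR3 ligand, had 11 counts in the control library and 64 in the DSS library, a log2 ratio of 2.93 (interval 1.99 to 4.00). Cxcl10 and Cxcl11, which share a receptor, therefore lay on opposite sides of 0, each on few counts.

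Bases upstream of the start sites are shown for 5 of these genes, since Ccl20, Cxcl1, Cxcl10 and Ccl9 hold matches to the consensus motif of NF-κB while their ratios differed, and since Ccl6 is the neighbor of Ccl9 without a match. The bases come from RefSeq on GRCm38.p6 and end just before the annotated start of transcription, read 5′ to 3′ on the strand of the gene. Capitals mark matches to the NF-κB consensus, and at the left of Cxcl10 a match to the core of the interferon-stimulated response element. The windows are chr1:83116646-83116765 (plus strand) for Ccl20, chr5:90891125-90891244 (plus) for Cxcl1, chr5:92348890-92349139 (minus) for Cxcl10, chr11:83578637-83578756 (minus) for Ccl9 and chr11:83593088-83593207 (minus) for Ccl6.
Ccl20: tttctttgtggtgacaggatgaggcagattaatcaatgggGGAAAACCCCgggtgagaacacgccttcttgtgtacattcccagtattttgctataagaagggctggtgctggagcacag
Cxcl1: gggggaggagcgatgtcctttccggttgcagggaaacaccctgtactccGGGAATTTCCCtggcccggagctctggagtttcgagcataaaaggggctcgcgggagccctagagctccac
Cxcl10: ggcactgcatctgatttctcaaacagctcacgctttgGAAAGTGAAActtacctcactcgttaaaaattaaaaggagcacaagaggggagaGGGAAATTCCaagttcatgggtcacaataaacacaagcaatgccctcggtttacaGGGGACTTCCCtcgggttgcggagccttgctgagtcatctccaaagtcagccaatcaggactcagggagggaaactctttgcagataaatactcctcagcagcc
Ccl9: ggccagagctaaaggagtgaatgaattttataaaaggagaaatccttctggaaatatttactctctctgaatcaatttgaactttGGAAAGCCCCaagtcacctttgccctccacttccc
Ccl6: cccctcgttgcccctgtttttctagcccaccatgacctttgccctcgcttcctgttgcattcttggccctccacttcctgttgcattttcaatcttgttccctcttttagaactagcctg

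Motifs were searched on both strands in the 250 bases before the start, which RefSeq gives for 9 of the 10 genes in 10 windows, with 2 windows for Ccl25. Cxcl16 has no entry. The NF-κB consensus was found in 4 of the 10 windows and in 7.25% of 32851 windows over all genes. In Ccl20 the match begins 80 bases before the start, in Ccl9 35 bases before it, and in Cxcl1 2 overlapping matches begin 71 and 70 bases before it. Cxcl10 holds matches at 159, 104 and 103 bases, of which the last 2 overlap, and its response element core (GAAA, any 2 bases, GAAA) at 213 bases is the only one in the 10 windows, beside 2.98% of all windows. An AP-1 site (TGANTCA) was found in the windows of Cxcl10 and Ccl9, beside 6.75% of all windows. The letters TATAAA, on either strand, were found in 4 windows, those of Ccl9, Il18, Cx3cl1 and the second start of Ccl25, beside 12.4% of all windows. The windows of Ccl6 and Ccl9 had a longest shared run of 13 bases, which begins 55 bases before the start of Ccl6 and 14 bases before that of Ccl9. The 4 genes with an NF-κB match thus had log2 ratios from -1.45 to 3.78, and a match is a description of letters, not a site.

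**Figure D2:**
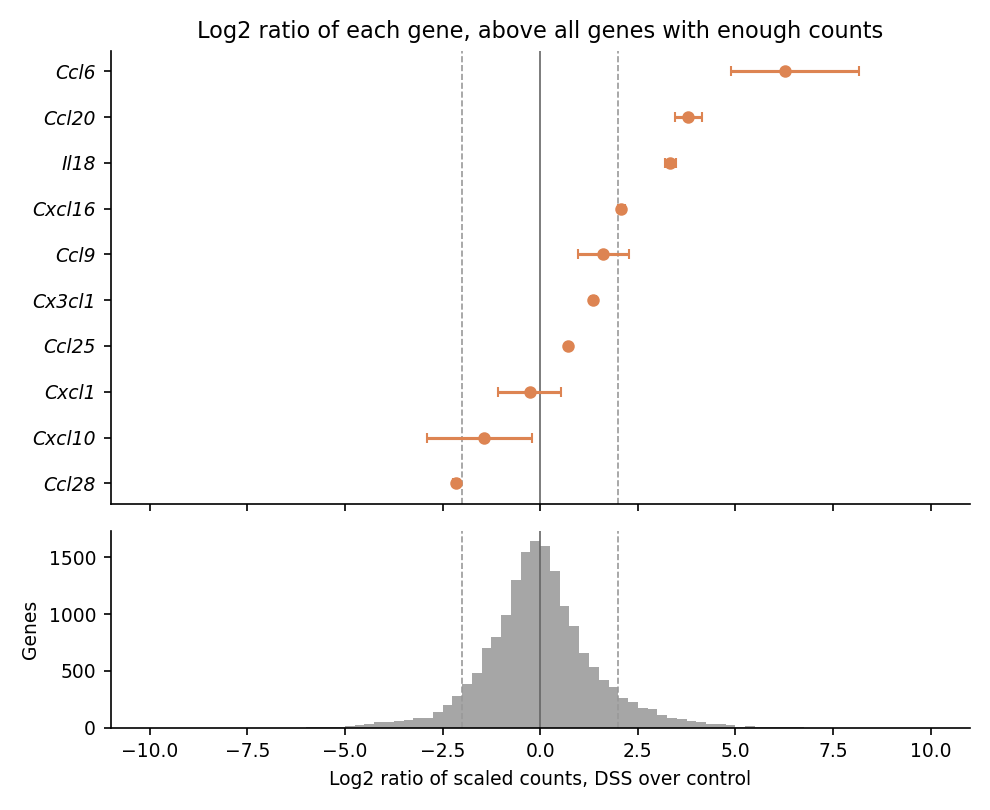
Log2 ratio of scaled counts (DSS over control) of the 9 chemokines and Il18, with 95% Clopper-Pearson intervals, above the distribution of the ratio over 17235 genes with 10 or more counts in either library. Dashed lines mark 2 and -2. Ccl6 at 6.27, Ccl20 at 3.78 and Il18 at 3.33 lay in the right tail of the distribution, and Ccl28 at -2.16 in the left.

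Ccl25 and Ccl28 are the homeostatic chemokines of the group. Ccl25 (NCBI gene 20300) encodes the ligand of CCR9 and marks the small intestine, and it had the highest level of the 10 genes in both libraries. It had 16890 counts in the control library and 21303 in the DSS library, or 236 CPM and 390 CPM. The log2 ratio of 0.72 (interval 0.69 to 0.75) was smaller in size than those of 8 of the other 9 genes, and 4315 genes had a higher ratio. Only 3.35% of genes in the control library and 2.35% in the DSS library had more counts than Ccl25.

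Ccl28 (NCBI gene 56838) encodes a ligand of CCR10 and CCR3 that draws IgA plasma cells to mucosae. It had 8064 counts in the control library and 1378 in the DSS library, or 113 CPM and 25.2 CPM. Its log2 ratio was -2.16 (interval -2.24 to -2.08), a 4.47-fold lower level in the DSS library. Ccl28 was the only well-counted gene of the 10 that was lower there, since Cxcl1 and Cxcl10 had under 40 counts in both libraries. For each count of Ccl28 there were 2.09 counts of Ccl25 in the control library and 15.5 in the DSS library. Ccl25 thus exceeded Ccl28 by far more in the DSS library.

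Ccl25 lies on chromosome 8 from 4325205 to 4360020 and Ccl28 on chromosome 13 from 119623819 to 119654359, both on the plus strand. In the GENCODE vM21 annotation, part of Ccl25 overlaps Elavl1 on the other strand, with 204 exonic bases in common. In RefSeq, from which the positions come, Elavl1 lies 65 bases to the left of Ccl25, without overlap. Elavl1 had a log2 ratio of -0.62 with 5003 counts in the control library and 2484 in the DSS library. The libraries were made with a stranded kit, but whether strand was used in counting is not given in the sources used here. Ccl28 is free of such an overlap. Next to Ccl28, Tmem267 was at -0.26 and Hmgcs1 at 1.08, so neither neighbor was lower to the degree of Ccl28.

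Cxcl16 (NCBI gene 66102) and Cx3cl1 (NCBI gene 20312) encode the transmembrane chemokines, which hold cells that bear CXCR6 or CX3CR1 at the epithelial surface and act as attractants once proteases cut them off. Cxcl16 had 1605 counts in the control library and 5180 in the DSS library, or 22.4 CPM and 94.7 CPM. Its log2 ratio was 2.08 (interval 1.998 to 2.16), or 4.22-fold. Cx3cl1 had 3601 counts in the control library and 7076 in the DSS library, or 50.3 CPM and 129 CPM. Here the log2 ratio was 1.36 (interval 1.305 to 1.42), or 2.57-fold. Both transmembrane chemokines were higher in the DSS library, and Cxcl16 gained on Cx3cl1, from 0.446 counts for each count of Cx3cl1 to 0.732.

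Cxcl16 lies on chromosome 11 from 70454389 to 70459984 on the minus strand, and 18.3% of its exonic bases overlap Zmynd15 on the other strand. Zmynd15 had 33 counts in the control library and 239 in the DSS library, a log2 ratio of 3.24 (interval 2.72 to 3.82). The part of the shared bases in the ratio of Cxcl16 was not tested. Tm4sf5, the next separate gene to the right, also had a high log2 ratio of 1.91, and Med11, the next to the left, was at 0.05. Cx3cl1 lies on chromosome 8 from 94772180 to 94782427 on the plus strand, between Ccl22 and Ccl17, which were not analysed here.

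The counts of the 9 chemokines together were 30331 in the control library and 36063 in the DSS library. Scaled, the chemokine sum was 424 CPM and 660 CPM, with a log2 ratio of 0.64 and an interval from 0.62 to 0.66. Scaled by total counts alone this ratio was 0.38. Ccl25 held 55.7% of the chemokine counts in the control library and 59.1% in the DSS library. Ccl28 went from 26.6% (interval from 26.1 to 27.1) to 3.82% (from 3.63 to 4.02). The transmembrane pair went from 17.2% (from 16.7 to 17.6) to 34.0% (from 33.5 to 34.5), and Ccl20 from 0.247% to 2.19%. Per transcript length, the pair held 8.44% in the control library and 16.003% in the DSS library. Ccl25 thus led the sum in both libraries, while the share of Ccl28 was smaller in the DSS library and those of Cx3cl1, Cxcl16 and Ccl20 were larger.

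**Figure D3:**
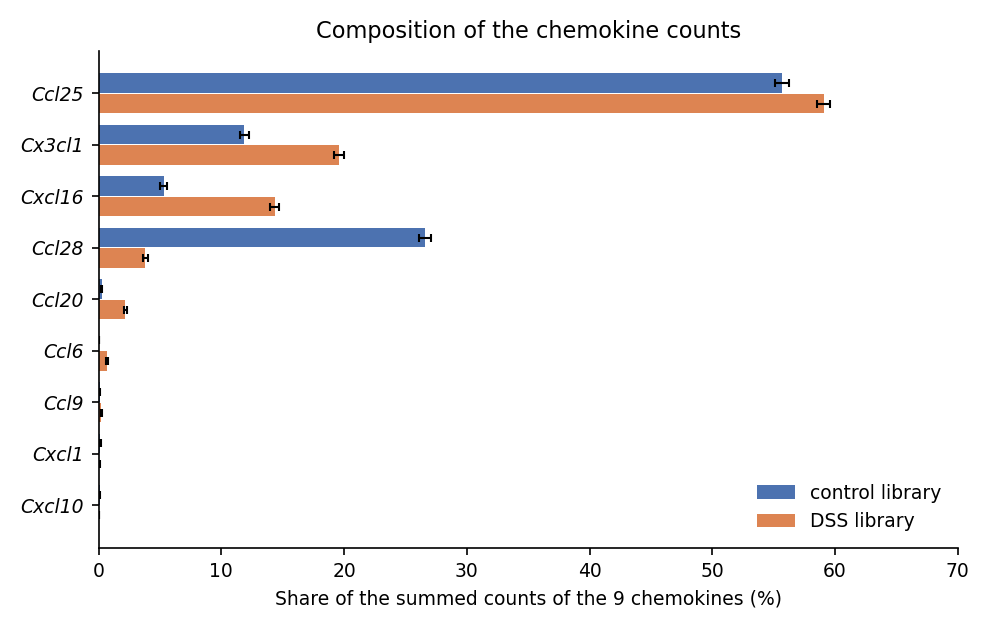
Share (%) of each chemokine in the summed counts of the 9 chemokines, in the control library (blue) and the DSS library (orange), with exact 95% binomial intervals for counting error. Ccl25 took 55.7% and 59.1%, Ccl28 26.6% and 3.82%, and Cx3cl1 11.9% and 19.6%.

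Levels can be compared between genes only per length, and for this CPM was divided by the length of the longest coding transcript in GENCODE vM21. The counting intervals do not cover this choice of transcript, on which the orders below depend. Ccl25 and Il18 have 4 coding transcripts each, Ccl20 and Cx3cl1 have 3 and Cxcl10 has 2. In the control library, Ccl25 led with 223 CPM per kb, before Ccl28 with 30.1, Cx3cl1 with 15.2, Cxcl16 with 8.31 and Il18 with 6.43. A gap followed to Ccl20 with 0.740 CPM per kb, Cxcl1 with 0.528, Cxcl10 with 0.258, Ccl9 with 0.144 and Ccl6 with 0.0388. From Ccl20 down, each gene overlapped the next in its counting interval. The order of neighbors among these 5 genes is thus not settled by the control library. Genes further apart could be told apart, as Ccl20 (interval 0.582 to 0.927) lay above Cxcl10 (interval 0.167 to 0.381).

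In the DSS library, Ccl25 led again with 368 CPM per kb, and Il18 had moved from the fifth place to the second with 64.8. Cx3cl1 followed with 39.0 CPM per kb, Cxcl16 with 35.1, Ccl20 with 10.2 and Ccl28 with 6.74. Ccl6 had 2.98 CPM per kb, Cxcl1 0.441, Ccl9 0.438 and Cxcl10 0.0946. Of neighbors in this order, the counting intervals overlapped only for Cxcl1 and Ccl9. Ccl28 had thus gone from the second place to the sixth, and Ccl6 from the last to the seventh.

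Il18 (NCBI gene 16173) had 407 counts in the control library and 3137 in the DSS library, or 5.69 CPM and 57.4 CPM. Its log2 ratio was 3.33 (interval 3.19 to 3.49), which is 10.1-fold, and 380 genes had a higher ratio. The gene lies on chromosome 9 from 50554700 to 50581841 on the plus strand, with 6 exons in its longest coding transcript. Bco2 and Tex12 overlap the gene on the other strand without sharing exonic bases. Bco2 itself was higher in the DSS library, at a log2 ratio of 2.27 with 1313 and 4842 counts in control and DSS.

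Of 9 other genes of the interleukin 1 family, 2 could be measured, and both were higher in the DSS library. Over all genes, 48.0% had a log2 ratio above 0. Il1rn, which encodes the natural antagonist of the interleukin 1 receptor, went from 1567 counts to 6140, a log2 ratio of 2.36 (interval 2.28 to 2.44). Il33, which encodes an alarmin of barrier cells, went from 12 counts to 171, a log2 ratio of 4.22 (interval 3.38 to 5.20). The other 7, Il1a and Il1b among them, were not analysed here.

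IL-18 signals through a receptor of which Il18r1 encodes the binding chain. Of a list of 15 receptors of these ligands and atypical chemokine receptors, Il18r1 was the only one that could be measured, and the other 14 were not analysed here. It had 54 counts in the control library and 307 in the DSS library, or 0.755 CPM and 5.62 CPM. The log2 ratio of Il18r1 was 2.90 (interval 2.47 to 3.34). Il18bp, which encodes the secreted protein that binds and neutralizes IL-18, had 133 and 151 counts and a log2 ratio of 0.57 (interval 0.23 to 0.92). For each count of Il18bp there were 3.06 counts of Il18 in the control library and 20.8 in the DSS library.

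The genes that process these proteins differed among themselves. Of 19 on the list, 17 were measured, with a median log2 ratio of 0.60, 14 above 0 and 3 below, where 48.0% of all genes were above 0. With total counts, 12 were above 0, beside 38.5% of all genes. Gsdmd, which encodes the pore-forming gasdermin D, was the only one past 2, at 2.10 with 3083 and 10087 counts in control and DSS, or 1.84 with total counts, and with upper quartile factors Dpp4 was past 2 as well, at 2.06. Pycard, which encodes the inflammasome adaptor ASC, was the lowest at -1.30, with 3396 and 1056 counts. Casp1, whose product cleaves the IL-18 precursor, was at 0.24 and Casp4 at 0.25, and both turned to -0.01 with total counts. The large difference of Il18 was thus not shared by Casp1 or Pycard.

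The sensors of the list lay between. Those of the NAIP family, which detect bacterial flagellin and secretion proteins, were at 1.67 for Naip5, 1.32 for Naip1, 1.21 for Naip6 and 1.02 for Naip2. Naip genes are close paralogs, so their separate values are uncertain. Their partner Nlrc4 was at 1.15, Nlrp1b at 1.54, Nlrp6 at 0.60 and Aim2 at 0.40. Among the proteases that act on chemokines, Dpp4, which trims their N-terminus, was at 1.97 with 13651 and 40788 counts. Adam10 at -0.42 and Adam17 at -0.39, whose products shed Cx3cl1 and Cxcl16, were lower in the DSS library, while their substrates were higher. Furin, a general convertase, was at 0.28.

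**Figure D4:**
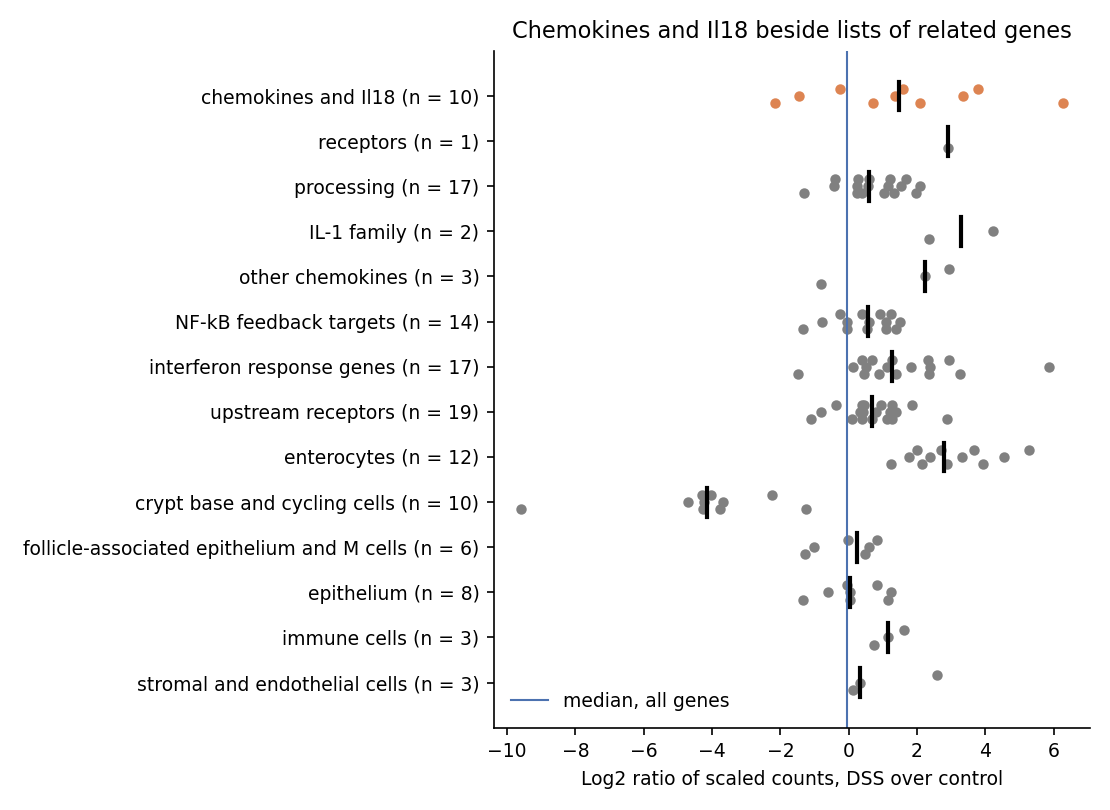
Log2 ratio of scaled counts (DSS over control) of the 9 chemokines and Il18 (orange) and of the genes of 13 lists (gray), with n the number of genes with 10 or more counts in either library. Black bars are list medians and the blue line is the median of all genes at -0.06. The 10 genes ran from -2.16 to 6.27, the enterocyte genes lay above 1, and the crypt base and cycling genes below -1.

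Of 29 other chemokine genes, 5 were measured, all at under 3 CPM in either library, and 24 were not analysed here, among them Ccl2, Ccl5, Cxcl2, Cxcl5 and Cxcl9. The table lists a gene only where both libraries have at least 1 count. Besides Cxcl11, Ccl27a had 185 and 80 counts in control and DSS and a log2 ratio of -0.82 (interval -1.22 to -0.44). The remaining 3, named here for completeness, had few counts. Cxcl13 had 8 and 29, Ccl24 had 9 and 2, and Cxcl12 had 7 and 6. None of these genes came near the levels of Ccl25, Ccl28, Cx3cl1 or Cxcl16.

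Other target genes of NF-κB, the factor known to induce Ccl20 and Cxcl1, lay on both sides of 0. Over 14 such genes, none of them a chemokine, the median log2 ratio was 0.56. Of these, 9 were above 0, beside 48.0% of all genes, and 5 below. At 1 or more were 5 of the 14, beside 19.3% of all genes, and 1 was at -1 or less, beside 20.2%. None was past 2 or -2, where 7.87% and 6.54% of all genes were. With upper quartile factors, 11 were above 0, beside 51.3% of all genes. Nfkbiz was at 1.51, Tnip1 at 1.38 and Zfp36 at 1.24, while Bcl3 was at -0.79 and Ier3 at -0.25. Nfkbia, which encodes the inhibitor IκBα, was at -0.06 and turned to 0.03 with upper quartile factors. Icam1 was at -1.35 on 40 and 12 counts. Ccl20 at 3.78 lay above every gene of this list, and Cxcl1 at -0.26 lay below the median.

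Of 19 interferon response genes, 17 were measured, and Gbp2 and Gbp3 were not analysed here. Of the 17, 16 had a log2 ratio above 0, beside 48.0% of all genes, and 15 did with total counts, beside 38.5%. Of these 17 genes, 6 were at 2 or more, beside 7.87% of all genes, and the median was 1.28. Mx1 was at 5.87 with 10 counts in the control library, Irf7 at 3.25 and Rsad2 at 2.94. Ifit2 was the only one below 0, at -1.48 with 62 and 17 counts in control and DSS. Irf9 was at 0.40, and Oas1a at 0.14 turned to -0.12 with total counts. Cxcl10, which is itself an interferon response gene by textbook knowledge, lay at -1.45 beside this list, close to Ifit2.

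Lists of cell types show what else differed between the libraries. All 12 enterocyte genes were above 0, beside 48.0% of all genes, with a median of 2.79 and summed levels of 4588 CPM in the control library and 32917 CPM in the DSS library. Apoa1 was at 5.27, Apoa4 at 4.54 and Alpi at 3.94, and Anpep at 1.24, Fabp1 at 1.78 and Mttp at 2.01 were the lowest. All 10 genes of the crypt base and of cycling cells were below 0, beside 52.0% of all genes, with a median of -4.14 and summed levels of 1809 CPM and 207 CPM in control and DSS. Olfm4 was at -9.59, Mcm5 at -4.70 and Ascl2 at -4.31, and Top2a at -3.68, Rgmb at -2.24 and Smoc2 at -1.25 were the nearest to 0. The enterocyte genes lay on the same side of 0 as 7 of the 10 genes. The crypt base and cycling genes lay on the side of Ccl28, Cxcl10 and Cxcl1, though the interval of Cxcl1 included 0. The part of these cell types in the ratios of the 10 genes was not tested.

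The 8 general markers of intestinal epithelium were all counted in both libraries, with a median of 0.03, or -0.22 with total counts. Their summed level was 6037 CPM in the control library and 9291 CPM in the DSS library. Vil1 was at 1.25, Krt19 at 1.15 and Krt8 at 0.84. Cdx2, a factor of intestinal identity, was at -1.35 with 12798 and 3840 counts, and Cdx1 was at -0.61. Cdh1 was at -0.03 and turned to 0.06 with upper quartile factors.

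Ccl20, Ccl9 and Cxcl16 are known from the epithelium over lymphoid follicles, so markers of this epithelium and its M cells were examined. Of 10, 6 were measured, with a median of 0.24, or -0.02 with total counts, and none was at 1 or more. Their summed level was 157 CPM in the control library and 195 CPM in the DSS library. Tnfaip2 was at 0.82, Pglyrp1 at 0.59 and Anxa5 at 0.49, while Tnfrsf11a was at -1.28, Marcksl1 at -1.01 and Tnfrsf11b at -0.02, the latter at 0.07 with upper quartile factors. Gp2, Spib, Sox8 and Ubd were not analysed here. The measured markers lay on both sides of 0, and the part of this epithelium in the ratios of Ccl20, Ccl9 and Cxcl16 was not tested.

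Ccl6 and Ccl9 are also products of myeloid cells. Of 15 leukocyte markers, 5 were measured, with a summed level of 12.4 CPM in the control library and 23.6 CPM in the DSS library. Itgam, at 1.14 with 375 and 631 counts, and Cd68, at 0.73 with 491 and 621 counts, held most of it. Csf1r had 9 and 21 counts, Fcer1g 5 and 9, and Cd79a 6 and 7. The pan-leukocyte marker Ptprc and the macrophage marker Adgre1 were not analysed here. The counting interval was above 0 for Itgam, Cd68 and Csf1r and included 0 for Fcer1g and Cd79a, and the part of these markers in the ratio of Ccl6 was not tested. Of 10 stromal and endothelial markers, 4 were measured at 1.55 CPM in sum in the control library and 2.74 CPM in the DSS library, with Pecam1 at 2.58 on 12 and 55 counts and Pdgfrb at 0.32.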

How the data were processed

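mRNA-seq was performed on 1 control and 1 DSS-treated culture of mIOs. Per the labels, libraries were prepared with the TruSeq Stranded mRNA kit, and the submitters' processing notes name HISAT2 and StringTie. Tool versions, the genome build and the counting settings are not given in the sources used here. The deposited table of the authors holds raw counts, 1 row a gene, by NCBI gene identifier, without normalization. Tables of the single samples, named for FPKM, held the same counts for all 19294 genes and were not used.

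TMM, upper quartile and DESeq2 1.42.0 factors were computed with edgeR 4.0.16 in R 4.3.3, and intervals with scipy 1.17.1 in Python 3.11.15. The calculation was tested on simulated counts that held counting error only, which checks the computation and not variation between cultures. The 10 genes and the lists were chosen with earlier results of these data known. Named genes were all receptors and processing genes reaching 10 counts and, of other lists, the top 3 and bottom 3 by log2 ratio where the control or the DSS library had 50 or more counts. Genes with fewer counts, overlapping and neighboring genes were named after their values were seen. Lists were matched by symbol or NCBI identifier. Positions and promoters came from RefSeq (GRCm38.p6), transcripts and overlaps between genes from GENCODE vM21.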

Additional observations from a re-analysis of the deposited data

How the results depend on the processing

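All 10 genes kept the sign of their log2 ratio under the 5 alternatives tried for them, namely other library scaling (total counts, DESeq2 or upper quartile factors), thinning of the deeper library and a prior count of 2. Total counts lowered every ratio by the same amount, a shift of -0.26, and upper quartile factors raised it by 0.09. The summed chemokine ratio was 0.38 with total counts and 0.73 with upper quartile factors. Ccl6 depended most on the prior count, since its control library has 4 counts, and was at 5.63 with a prior count of 2. The numbers of the 10 genes past 1 or 2 stayed within 1.5 times of those given. The median of the other chemokines was 2.25 over 3 genes, 0.17 over all 5 measured and 1.05 over those with at least 10 counts in both libraries. Per transcript length, Ccl25 held 80.1% of the chemokine level in the control library and 79.5% in the DSS library, and Ccl28 10.8% and 1.45%. Depth limits Cxcl1, Cxcl10, Ccl9 and the control levels of Ccl6 and Ccl20, which rest on under 80 counts in a library. No paired analysis was possible because each condition has 1 library. No replicate could be left out for the same reason.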

Other observations

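Receptors through which cytokines and microbial products act on the epithelium were measured in full, with all 19 genes of the list counted in both libraries. Their median log2 ratio was 0.68, beside -0.06 for all genes. Of the 19, 16 were above 0 and 3 below, where 48.0% of all genes were above 0, and with total counts 15 were above 0, beside 38.5% of all genes. Il1r1, the receptor of interleukin 1, was the only one past 2, at 2.87 on 10 counts without DSS and 56 with it. Tlr4, the receptor of lipopolysaccharide, was at 1.86, from 54 counts to 150, and Il22ra1, a subunit of the interleukin 22 receptor, was at 1.38 with 2010 and 4008 counts. The lowest were Nod1, a sensor of bacterial peptidoglycan, at -1.09 with 355 and 127 counts, Tnfrsf1b at -0.82 and the flagellin receptor Tlr5 at -0.37. The flagellin receptor of the cell surface, Tlr5, was thus lower in the DSS library, while Naip5 and Naip6, whose products sense flagellin inside the cell, were at 1.67 and 1.21.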
